A study of Mus musculus with 48 samples.

Results

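The 10 genes described here carry iron and heme through cells: Hp, Hmox1 and Blvrb capture and break down hemoglobin and its heme, Tfrc, Slc11a2 and Slc11a1 bring iron in, Fth1, Ftl1 and Ncoa4 store it and open the store, and Slc40a1 lets it out. They were chosen by name for these roles, with earlier results of these data known. All 10 were found among the 18782 genes of the count table and passed the filter that left 14431 genes for testing. RNA was read in the thoracic aorta of 48 wild-type C57BL/6J mice, 1 library per mouse. Control males (MaCon, n = 10) and control females (FeCon, n = 10) drank normal water. The others drank 0.4% β-aminopropionitrile (BAPN), an inhibitor of the lysyl oxidases that cross-link collagen and elastin, for 28 days from 3 weeks of age. Treated mice with no lesion seen under the microscope formed MaNonAD (n = 4) and FeNonAD (n = 8), and those with aortic dissection or aneurysm formed MaAAD (n = 7) and FeAAD (n = 9). Only mice alive at the end were sequenced, so ruptured aortas are not represented. The paper reports far more deaths from rupture in treated males than in treated females. MaAAD and FeAAD were therefore not selected alike by survival, which bears on every comparison of their responses. The aorta had been flushed with saline through the heart, and its ascending part, arch and proximal descending part were taken. The study's methods give the lesioned segments as the source of RNA and do not say which segments served in mice with no lesion, so lesion and segment cannot be told apart.

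Iron is needed for respiration and cell division, and free iron or free heme damages lipids and proteins. Hemoglobin set free by bleeding is bound by haptoglobin (Hp), heme is opened by heme oxygenase 1 (Hmox1), and biliverdin reductase B (Blvrb) acts on the pigments that result, while the released iron is caged in ferritin or exported through ferroportin (Slc40a1). Iron regulatory proteins bind a hairpin in some messenger RNAs when iron is scarce: a hairpin before the coding region blocks translation, as in ferritin and ferroportin, and hairpins after it protect the message from decay, as in the transferrin receptor (Tfrc).

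The hairpins are shown because they divide the 4 members in which they were found into those whose messages carry them before or after the coding region. A search of the annotated untranslated regions, on the coding strand, for a C, 5 bases of any kind, CAGTG and a last base other than G, with 5 paired bases on either side of the 6-base loop and G with U pairs allowed, matched 4 of the 10 members. It matched the 5′ untranslated region of 0.101% and the 3′ untranslated region of 0.453% of all 21877 genes searched. Each sequence is given 5′ to 3′ as 27 bases of the coding strand of GRCm38, with the loop in capitals. Fth1, Ftl1 and Slc40a1 had 1 match each before the coding region, and Tfrc had 4 after it.
Fth1, 5′ untranslated region, chr19:9982733-9982759, plus strand: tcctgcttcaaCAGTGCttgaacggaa
Ftl1, 5′ untranslated region, chr7:45459780-45459806, minus strand: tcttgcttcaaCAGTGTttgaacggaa
Slc40a1, 5′ untranslated region, chr1:45925466-45925492, minus strand: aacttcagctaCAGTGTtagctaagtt
Tfrc, 3′ untranslated region, chr16:32631220-32631246, plus strand: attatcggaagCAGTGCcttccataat
Tfrc, 3′ untranslated region, chr16:32631599-32631625, plus strand: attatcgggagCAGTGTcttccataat
Tfrc, 3′ untranslated region, chr16:32631664-32631690, plus strand: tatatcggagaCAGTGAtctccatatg
Tfrc, 3′ untranslated region, chr16:32631711-32631737, plus strand: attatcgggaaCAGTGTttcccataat
Over these 27 bases Fth1 and Ftl1 differed at 2 positions, 1 of them in the loop. For the other 6 members no match was found by this rule. That says only that no stretch of the annotated regions met both the letters and the full pairing, and a hairpin with looser pairing would be missed. RNA counts do not measure translation, which is where the 5′ hairpins act.

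Library totals ranged from 13548015 to 17281268 counts. The lowest count of any member in any library was 32, and no member was at 0 in any library. Values are CPM, counts scaled to the same total in every library and corrected for composition by TMM. Smooth muscle markers (Acta2, Myh11, Tagln, Cnn1, Smtn and Lmod1) summed to at least 11729.5 CPM in every library, as the labelled tissue should have them. The summed level of 10 macrophage markers was 342 to 562 CPM in MaCon and 761 to 3439.7 in MaAAD, and 386 to 591 in FeCon and 609 to 5239 in FeAAD. FeAAD5 stood apart with the highest macrophage sum (5239 CPM) and neutrophil sum (889 CPM), and it held the highest value of its group for 9 of the 10 members. FeAAD2 stood apart by red cell markers (26927 CPM), and FeCon10 and MaAAD7 by heart muscle markers (657 and 453 CPM). In a bulk sample, fewer cells of a type and less RNA per cell cannot be told apart. Nothing states that same-numbered mice of different groups belong together, and p-values measure the spread between these mice. The paper housed males and females apart and spread each group over several cages. The labels do not give the cage, so cage could not be fitted, and sex and cage cannot be told apart.

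Within each sex, aortas with dissection or aneurysm had more RNA for heme breakdown (Hmox1), hemoglobin capture (Hp), the phagosomal iron pump (Slc11a1) and the light ferritin chain (Ftl1) than control aortas. The exporter Slc40a1 was also called higher in each sex, but in males not without MaAAD5 (adjusted p = 0.0756 in edgeR), and in females in 8 of 19 refits that each left out 1 mouse. The plot of the 10 genes by library shows these levels, and the plot of fold changes sets the comparisons side by side. In FeAAD against FeCon, 6 members were called higher and 1 lower at a Benjamini-Hochberg adjusted p under 0.05 in edgeR's quasi-likelihood test, where 23.8% of all genes tested were called higher and 20.6% lower. The median log2 fold change of the 10 was 0.91, beside 0.00 for all genes tested. In MaAAD against MaCon, 5 were called higher and 0 lower, against 18.9% and 16.1% of all genes, with a median of 0.90 beside -0.03. At an unadjusted p under 0.05 there were 5 members in males, none lower, where 6287 of 14431 genes were, and 8 in females, where 7323 were. DESeq2 called 5 in males and 8 in females, where it called 5172 and 6563 of 14431 genes.

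**Figure D1:**
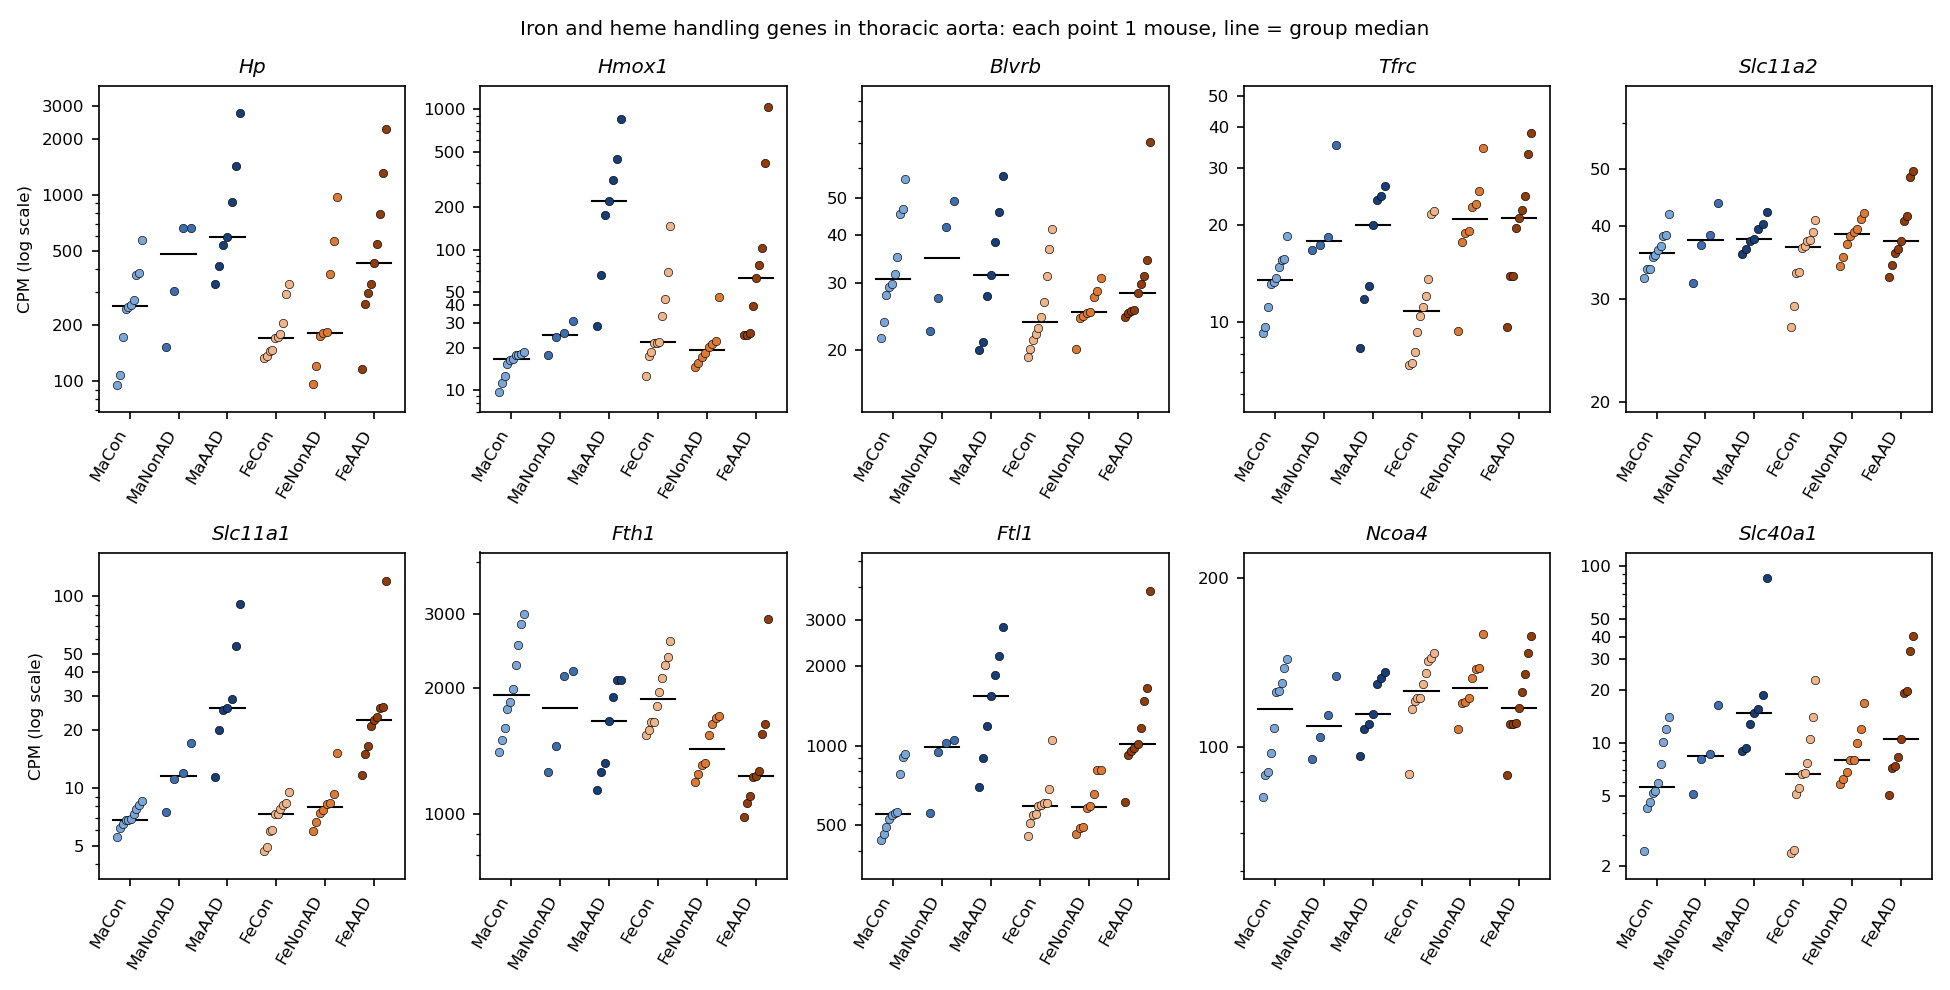
CPM of each member gene (log axis) in each of the 48 mice, by group, with each group's median as a line. The MaAAD points for Hmox1 (28.5 to 859 CPM) lie above all MaCon points, whereas those for Ncoa4 lie within the MaCon range, as do those for Slc11a2 except MaAAD5 (42.2 CPM).

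The 5 male calls were at least 2-fold, as were 4 of the 7 female calls (Hmox1, Slc11a1, Hp and Ftl1), where 11.4% and 12.7% of all genes met both criteria. Blvrb, Ncoa4 and Slc11a2 were called in neither sex. Tfrc and Fth1 were called in females alone, but a difference between the sexes was called for neither, with adjusted p = 0.639 and 0.890 for the interaction in edgeR's test.

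**Figure D2:**
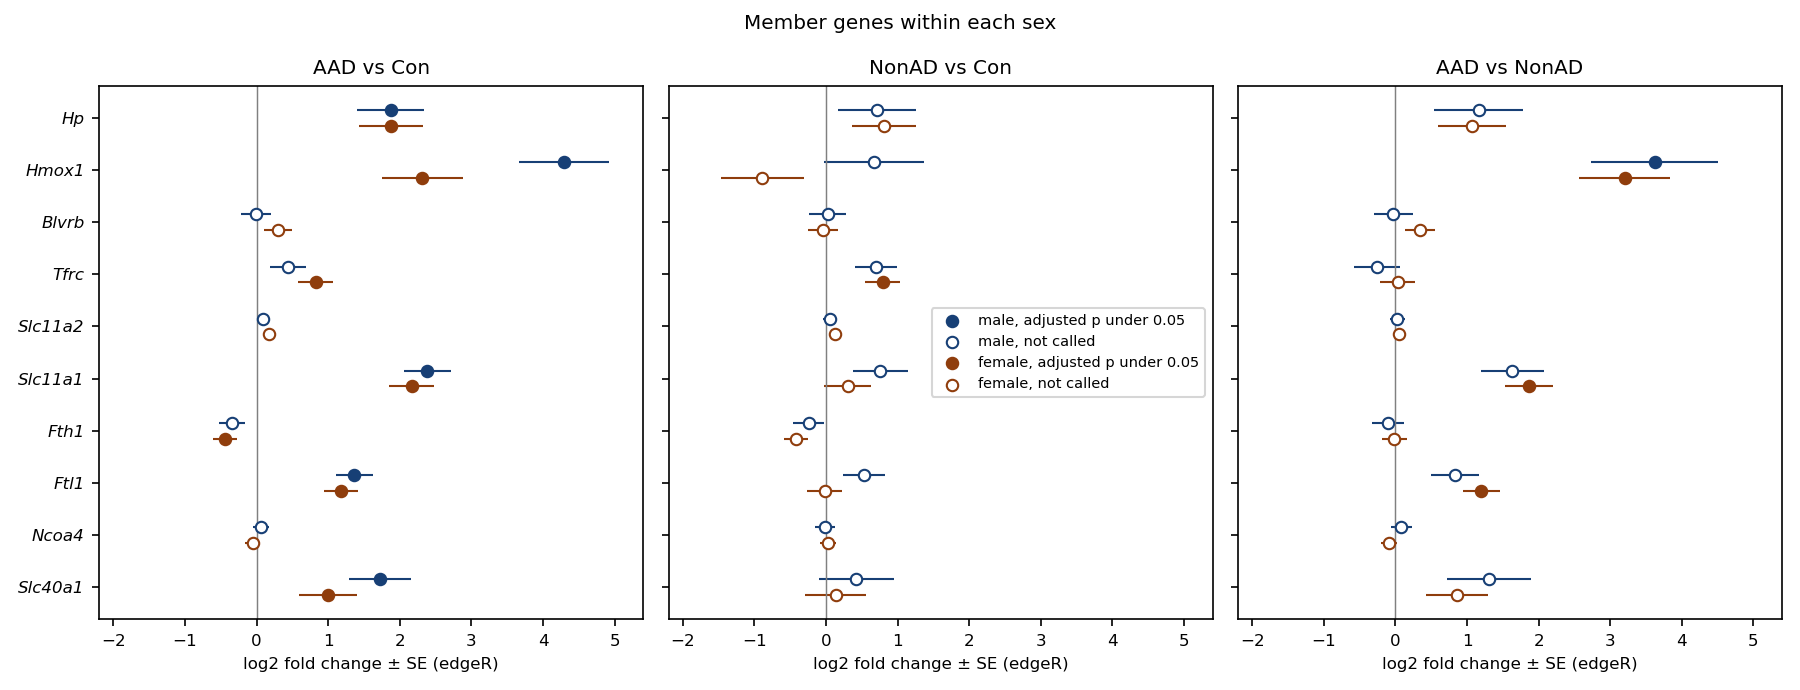
log2 fold change with its standard error (edgeR) for each member, males in blue and females in brown, for AAD against Con, NonAD against Con and AAD against NonAD. Filled points have an adjusted p under 0.05, and Hmox1 in males (4.29 against MaCon) lies farthest to the right.

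Hmox1, on chr8:75093621-75100589 of GRCm38, opens the heme ring and frees its iron. In MaCon its lowest, median and highest levels were 9.69, 16.5 and 18.7 CPM. The 4 MaNonAD mice had 25.4, 24.0, 30.8 and 17.8 CPM. In MaAAD the corresponding levels were 28.5, 224 and 859 CPM. Every MaAAD mouse was above every MaCon mouse, which held in that direction for 6.14% of all genes tested, and the spread within MaAAD was wide. The log2 fold change of MaAAD against MaCon was 4.29 ± 0.63 (SE), which is 19.6-fold, adjusted p = 5.75e-07. Against MaNonAD it was 3.62 ± 0.89, adjusted p = 0.0497, and it was called in 4 of the 11 refits that each left out 1 of these mice.

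In females the Hmox1 groups overlapped. FeCon had 12.5, 21.9 and 146 CPM at its lowest, median and highest, where FeCon8 gave the highest level and FeCon10 the next at 68.7. FeNonAD had 14.5, 19.3 and 45.7 CPM, and without FeNonAD8 no FeNonAD mouse was above 22.4. FeAAD had 24.4, 62.3 and 1046 CPM, the highest in FeAAD5 and the next, 416, in FeAAD9. The lowest FeAAD mice thus lay among the controls, and 2 mice carried most of the group's mean. The log2 fold change of FeAAD was 2.31 ± 0.56 against FeCon (adjusted p = 7.69e-04) and 3.21 ± 0.64 against FeNonAD (adjusted p = 3.14e-04). Without FeAAD5 the change against FeCon was 1.25 (adjusted p = 0.0354).

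The Hmox1 response to AAD was larger in males by 1.98 ± 0.80 on the log2 scale, which was not called (adjusted p = 0.205 in edgeR). Of 36 refits that each left out 1 mouse, 1 called it, the refit without FeAAD5 (3.04, adjusted p = 0.0158). Without MaAAD5 it was 1.44. The log2 fold change of MaAAD against FeAAD was 0.58 and was not called. FeCon was above MaCon by a log2 difference of 1.40 in size that edgeR did not call (adjusted p = 0.0766). Without FeCon8 the log2 fold change of MaCon against FeCon was -0.91. Over the 48 mice, with group means removed on the log2 scale, Hmox1 had a Pearson's r of 0.672 (Spearman's rho 0.541) with the macrophage sum and 0.702 (rho 0.565) with the neutrophil sum, values that share each library's scaling. The macrophage sum in FeCon8, the control with the most Hmox1, was 397 CPM, below the FeCon median of 450.0. The red cell sum was highest in FeAAD2, whose Hmox1 level of 102 CPM was below those of FeAAD5 and FeAAD9, and next highest in MaNonAD4, whose 17.8 CPM was the lowest of the MaNonAD group. Hmox2, the heme oxygenase that cells make at all times, had medians of 36.2 CPM in MaCon and 45.0 in MaAAD, and 40.3 in FeCon and 42.4 in FeAAD. It was called in neither sex, at 0.30, adjusted p = 0.0642 in males and 0.11, adjusted p = 0.470 in females in edgeR's test. Per Hmox2 count there were 0.396 ± 0.0742 (SD, n = 10) Hmox1 counts in MaCon and 6.44 ± 6.28 (n = 7) in MaAAD, and 0.981 ± 0.936 (n = 10) in FeCon and 3.61 ± 4.79 (n = 9) in FeAAD. Without the highest mouse of each group these means were 4.28 in MaAAD (without MaAAD5), 2.43 in FeAAD (without FeAAD5) and 0.722 in FeCon (without FeCon8).

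Hp encodes haptoglobin, a plasma protein that binds free hemoglobin and that liver and fat make in quantity. MaCon had 95.1, 253 and 576 CPM at its lowest, median and highest, the MaNonAD mice had 304, 663, 661 and 152, and MaAAD had 334, 598 and 2749. FeCon had 134, 171 and 332 CPM, FeNonAD 95.9, 182 and 978 and FeAAD 116, 431 and 2255. The Hp ranges overlapped in both sexes, and single MaAAD, FeNonAD and FeAAD mice were far above their group's median. AAD was higher than Con by a log2 fold change of 1.87 ± 0.47 in males (adjusted p = 0.00136 in edgeR) and 1.88 ± 0.45 in females (adjusted p = 6.09e-04). The step from NonAD to AAD was called in neither sex, at 1.16, adjusted p = 0.314 in males and 1.07, adjusted p = 0.106 in females in edgeR. Without FeNonAD3, the FeNonAD mouse with the most Hp, the female step was 1.53 (adjusted p = 0.0210), and without FeAAD5 it was 0.60 (adjusted p = 0.452). Without MaAAD1 the male step was 0.64 (adjusted p = 0.556).

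MaAAD1, with the most Hp of any mouse, also had the highest white fat sum of any mouse (5233 CPM against a MaAAD median of 1029), and without it the log2 fold change of Hp in MaAAD was 1.39 (adjusted p = 0.0149). In 5 of the 6 groups the mouse with the most Hp also had the highest white fat sum, the exception being FeAAD5, with 1044 CPM of white fat markers where the FeAAD range was 331 to 1875. Over the 48 mice, with group means removed on the log2 scale, Hp and the white fat sum had a Pearson's r of 0.519 and a Spearman's rho of 0.455, values that share each library's scaling. No white fat marker was called higher in AAD than Con in either sex, and Lep was lower in FeAAD (-1.33, adjusted p = 0.0264 in edgeR). The part of white fat in the Hp levels was not tested. Liver markers (Alb, Apoa1, Ttr and Serpina1a) summed to at most 1.66 CPM in any mouse. Blvrb, which reduces biliverdin and flavins, had medians of 30.7, 34.8 and 31.5 CPM in MaCon, MaNonAD and MaAAD, and 23.6, 25.1 and 28.2 in FeCon, FeNonAD and FeAAD. All Blvrb groups overlapped, and its log2 fold change of AAD against Con was -0.01, adjusted p = 0.985 in males and 0.30, adjusted p = 0.230 in females in edgeR.

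Tfrc, the receptor that takes up iron on transferrin, was the 1 member called in FeNonAD against FeCon, where 14.5% of all genes were. No member was called in MaNonAD against MaCon. FeCon mice had 7.37, 10.8 and 22.0 CPM at their lowest, median and highest, FeNonAD mice had 9.36, 20.9 and 34.5, and FeAAD mice had 9.65, 21.0 and 38.4. The ranges overlapped, and the medians of both BAPN groups stood near each other, well above the control median. The log2 fold change was 0.79 ± 0.25 in FeNonAD (adjusted p = 0.0235) and 0.82 ± 0.24 in FeAAD (adjusted p = 0.00440), both against the same FeCon mice, and 0.03 between FeAAD and FeNonAD (adjusted p = 0.946). Without FeNonAD5, the highest of its group, the FeNonAD change was 0.66 (adjusted p = 0.0773). Tfrc ran against the sum of 5 fibroblast markers (Pdgfra, Dpt, Col1a1, Dcn and Pi16), with a Pearson's r of -0.734 and a Spearman's rho of -0.717 over the 48 mice with group means removed on the log2 scale, values that share each library's scaling. That sum was 4824 to 7204 CPM in FeCon, 5445 to 10513 in FeNonAD and 6957 to 13078 in FeAAD. Of the 5 markers, Col1a1 was called higher in FeNonAD (0.64, adjusted p = 0.00775 in edgeR) and in FeAAD (1.28, adjusted p = 2.53e-08), and Pi16 was called lower in FeAAD (-0.78, adjusted p = 0.00213). The part of fibroblasts in the Tfrc levels was not tested.

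In males no Tfrc difference was called. MaCon had 9.28, 13.5 and 18.5 CPM, the MaNonAD mice had 17.3, 35.2, 18.3 and 16.8, and MaAAD had 8.32, 20.0 and 26.3. Of the 4 MaNonAD mice, MaNonAD2 was far above the others, and those others lay in the upper part of the MaCon range. The log2 fold changes against MaCon were 0.70, adjusted p = 0.303 for MaNonAD and 0.44, adjusted p = 0.181 for MaAAD in edgeR. Slc11a2, the transporter that carries iron out of endosomes after Tfrc has delivered it, stayed within 26.9 to 49.6 CPM over all 48 mice. Its group medians ran from 36.0 in MaCon to 38.8 in FeNonAD. Slc11a2 was close to the threshold in FeAAD against FeCon at 0.18 ± 0.07 (adjusted p = 0.0505 in edgeR), and it was called by DESeq2 and in 10 of 19 refits that each left out 1 mouse.

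Slc11a1 moves iron and other metals out of the phagosomes of macrophages and neutrophils, and it was the 1 member whose AAD and Con mice did not overlap in either sex. MaCon had 5.55, 6.83 and 8.54 CPM at its lowest, median and highest. The MaNonAD mice had 17.1, 11.9, 11.1 and 7.48 CPM, and MaAAD had 11.4, 25.9 and 90.9. In females the values were 4.71, 7.31 and 9.50 CPM in FeCon, 5.99, 7.95 and 15.2 in FeNonAD and 11.6, 22.5 and 120.3 in FeAAD. Every AAD mouse was above every control of its sex, which held for 3.63% of all genes in females, and of the MaNonAD mice 3 were above all MaCon mice while MaNonAD4 was among them. The log2 fold change of AAD against Con was 2.39 ± 0.33 in males (adjusted p = 2.15e-07) and 2.17 ± 0.31 in females (adjusted p = 3.20e-07), and in females without FeAAD5 it was 1.54 (adjusted p = 1.20e-06).

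Both ends of the Slc11a1 range followed the macrophage markers, as the plot against their sum shows. FeAAD5 and MaAAD7, the highest of their groups, had macrophage sums of 5239 and 3439.7 CPM, and FeAAD3 and MaAAD4, the lowest, had 609 and 761. Of the 10 macrophage markers, 9 were called higher in AAD than Con in each sex and Mertk lower, and the defining markers Adgre1, Cd68 and Csf1r were above 0 in every mouse. Of the neutrophil markers tested, 6 of 7 were called higher in FeAAD than in FeCon, and in MaAAD against MaCon 5 of 7 were higher and Ngp was lower (-3.72, adjusted p = 0.00202 in edgeR), with summed levels of 1.54 to 15.3 CPM in MaCon, 8.60 to 242 in MaAAD, 1.77 to 7.03 in FeCon and 6.62 to 889 in FeAAD. Ly6g, which marks neutrophils, was at 0 in 37 mice. The 6 markers of resident macrophages went both ways, with Mrc1 and F13a1 called higher and Cbr2 lower in AAD in each sex, Timd4 also lower in MaAAD, and Lyve1 and Folr2 called in neither. Their sum ran from 527 to 1141 CPM in MaCon and 459 to 970.2 in MaAAD, and 584 to 879.5 in FeCon and 489 to 989 in FeAAD. Smooth muscle markers were lower in AAD, 6 of 6 in both sexes. Of the red cell markers, 6 of 6 tested were called higher in FeAAD, where FeAAD2 was far above the rest, and 0 of 6 in MaAAD, with sums of 143 to 704 CPM in FeCon, 235 to 26927 in FeAAD, 208 to 1399 in MaCon and 294 to 2125 in MaAAD. The part of these shifts in the levels of Hmox1, Slc11a1, Ftl1 and Hp was not tested.

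**Figure D3:**
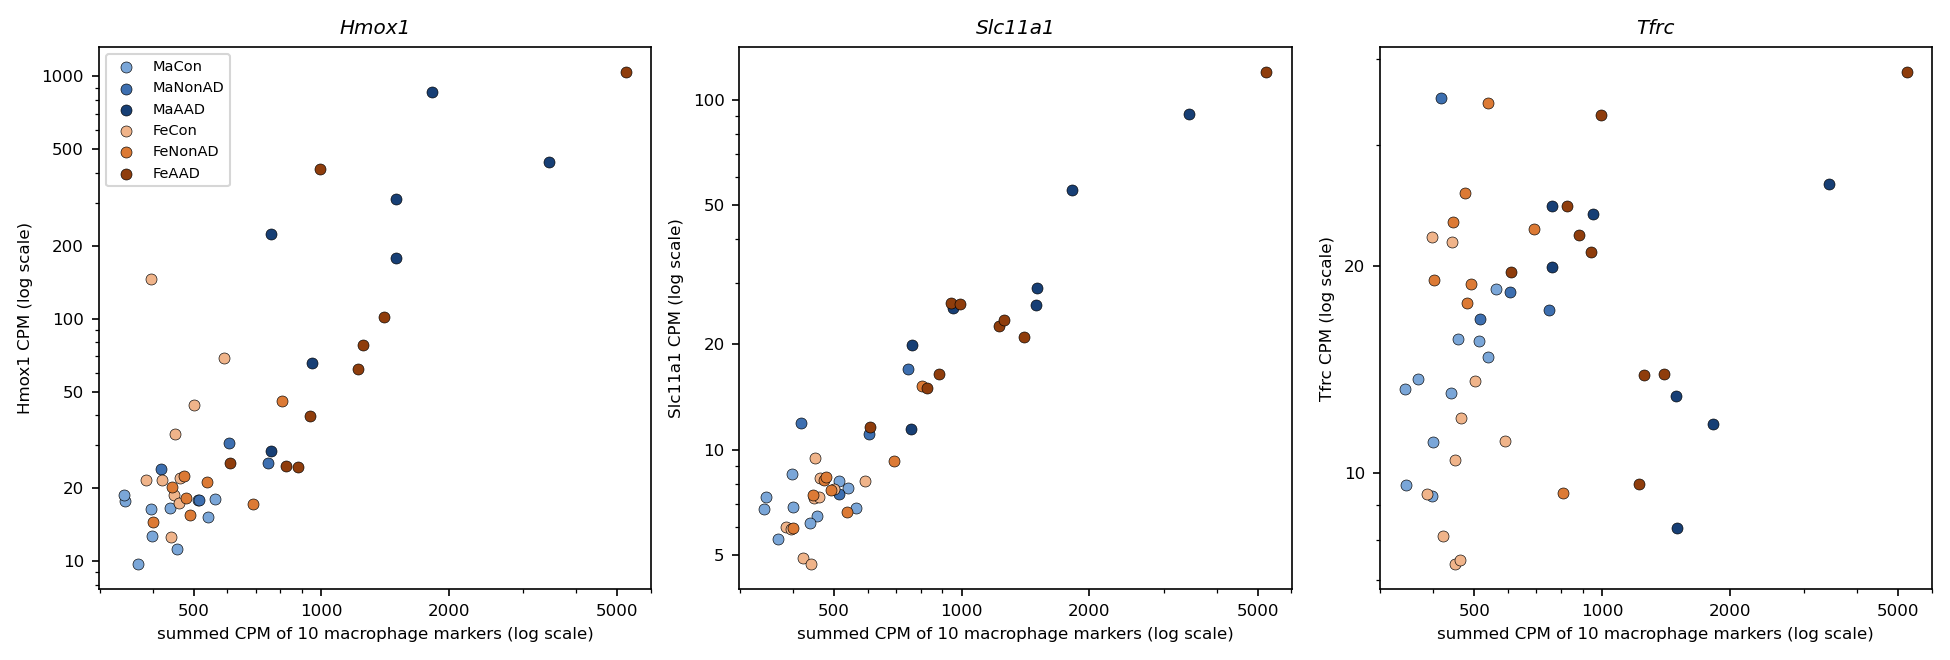
CPM of Hmox1, Slc11a1 and Tfrc in each mouse (log axis) against the summed CPM of 10 macrophage markers (log axis), coloured by group. Slc11a1 climbs along the markers up to FeAAD5 (120.3 CPM at a sum of 5239), Hmox1 does so with wider scatter and with FeCon8 (146 CPM) above the other controls, and Tfrc shows no such line.

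Against NonAD mice of the same sex, Slc11a1 was higher in FeAAD (1.87, adjusted p = 1.24e-04 in edgeR), as were Hmox1 and Ftl1, so 3 members were called higher and 0 lower where 18.2% of all genes were called, 13.2% higher and 5.00% lower. Without FeAAD5 these steps were 1.24 (adjusted p = 9.02e-04) for Slc11a1, 2.14 (adjusted p = 0.00561) for Hmox1 and 0.84 (adjusted p = 0.00701) for Ftl1 in edgeR. At an unadjusted p under 0.05 Hp was added and none was lower, where 4626 of 14431 genes were. DESeq2 also called 3, beside 2897 of all genes. MaAAD against MaNonAD, with 4 mice on one side, called 0.409% of all genes and 1 member, Hmox1, while Slc11a1 just missed the threshold at 1.63, adjusted p = 0.0507 and was called in 4 of 11 refits that each left out 1 mouse. In FeNonAD against FeCon, Tfrc was the 1 member called, where 14.5% of all genes were. In MaNonAD against MaCon, 0 members were called, where 0.624% of all genes were. There, 1 member (Tfrc) and 1734 of 14431 genes had an unadjusted p under 0.05 in edgeR. DESeq2 called 0 members and 166 of all genes, and a fit of these groups alone called 1 member, Slc11a1, and 274 of 13757 genes.

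Ferritin is a shell of heavy (Fth1) and light (Ftl1) chains, the heavy chain oxidizing iron and the light chain helping to lay down the iron core. MaCon mice had 439, 552 and 929 CPM of Ftl1 at their lowest, median and highest, the MaNonAD mice 1057, 944, 1029 and 558, and MaAAD mice 696, 1545 and 2819. FeCon had 456, 594 and 1050.0 CPM of Ftl1, FeNonAD 463, 588 and 811 and FeAAD 615, 1013 and 3862. The AAD medians were well above the Con medians, with overlap at the lower end. The log2 fold change of Ftl1 was 1.37 ± 0.25 in MaAAD (adjusted p = 2.96e-05) and 1.18 ± 0.24 in FeAAD (adjusted p = 8.36e-05) against the controls, and 1.20 in FeAAD against FeNonAD (adjusted p = 7.50e-04). Ftl1 counts were not whole numbers in 5 libraries, so some of its reads were shared out between this gene and others in the authors' counting, and related ferritin copies make its values less certain.

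Fth1 levels were lower in FeAAD, not higher. MaCon mice had 1409, 1922 and 3007 CPM, the MaNonAD mice 1262, 2198, 2134 and 1453, and MaAAD mice 1142, 1673 and 2096. FeCon had 1543, 1887 and 2589.6 CPM, FeNonAD 1197, 1435 and 1716 and FeAAD 983, 1232 and 2920.2. Apart from FeAAD5, no FeAAD mouse exceeded 1644 CPM, below the FeCon median. Fth1 was called lower in FeAAD, at -0.44 ± 0.17 (adjusted p = 0.0287), and without FeAAD5 at -0.64 (adjusted p = 5.81e-04). The fall was called in 13 of 19 refits that each left out 1 mouse. It was not called in FeNonAD (-0.42, adjusted p = 0.0915) or MaAAD (-0.34, adjusted p = 0.136) in edgeR's test. In FeNonAD it was called lower with the compared groups only (-0.42, adjusted p = 0.0182 in edgeR) and without the 4 libraries that stood apart (-0.43, adjusted p = 0.0454), so the fall is not shown to be particular to FeAAD. In FeAAD, then, Ftl1 was called higher and Fth1 lower, and both messages carry the 5′ hairpin printed above.

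The ratio of the chains within a mouse gives the same difference without scaling between mice. There were 0.301 ± 0.0507 (SD, n = 10) Ftl1 counts per Fth1 count in MaCon, 0.533 ± 0.207 (n = 4) in MaNonAD and 0.933 ± 0.243 (n = 7) in MaAAD. In females the ratios were 0.320 ± 0.0651 (n = 10) in FeCon, 0.417 ± 0.0537 (n = 8) in FeNonAD and 0.934 ± 0.265 (n = 9) in FeAAD. MaNonAD1 was at 0.837, within the MaAAD range, and the other MaNonAD mice were at or below 0.482. The lowest MaAAD ratio, 0.552, was above the highest MaCon ratio, 0.388. In FeAAD all mice but FeAAD3 were at or above 0.780, above every FeCon and FeNonAD mouse, whereas FeAAD3 was at 0.396. FeAAD3 also had the lowest macrophage and neutrophil sums of its group (609 and 6.62 CPM). Ftl1 counts exceeded Fth1 counts in 2 of 7 MaAAD and 4 of 9 FeAAD mice and in none of the other 32 mice. These ratios are a description and were not tested.

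**Figure D4:**
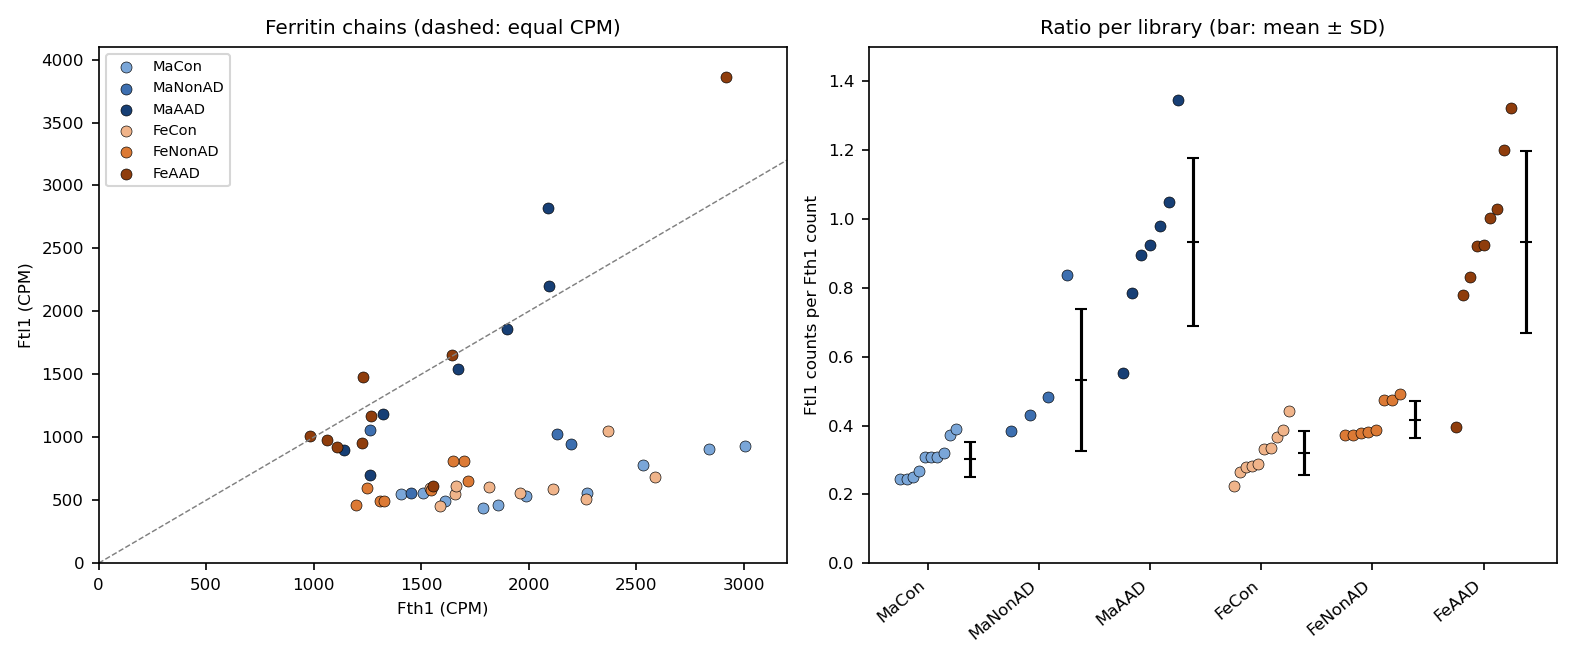
Ftl1 against Fth1 in CPM for each mouse (left, dashed line at equal CPM) and the Ftl1 counts per Fth1 count by group (right, mean ± SD beside the points). Control mice lie at ratios up to 0.443 and AAD mice at 0.780 or more except FeAAD3 (0.396) and MaAAD2 (0.552), while MaNonAD1 (0.837) lies among the AAD mice.

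Ncoa4, the receptor that delivers ferritin to lysosomes so that its iron is set free, had group medians from 109 CPM in MaNonAD to 127 in FeNonAD. Its values in all groups overlapped, and the log2 fold change of AAD against Con was 0.07, adjusted p = 0.684 in males and -0.05, adjusted p = 0.704 in females in edgeR. Per 1000 Fth1 counts there were 6.84 ± 4.08 (SD, n = 10) Tfrc counts in FeCon, 15.1 ± 5.88 (n = 8) in FeNonAD and 15.2 ± 4.14 (n = 9) in FeAAD. In males there were 7.20 ± 3.19 (n = 10) in MaCon, 12.5 ± 3.16 (n = 4) in MaNonAD and 11.8 ± 5.77 (n = 7) in MaAAD.

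Slc40a1, ferroportin, is the channel through which iron leaves a cell. MaCon mice had 2.46, 5.63 and 14.0 CPM at their lowest, median and highest, the MaNonAD mice 16.3, 5.16, 8.08 and 8.68, and MaAAD mice 9.06, 14.7 and 85.5. FeCon had 2.38, 6.71 and 22.8 CPM, FeNonAD 5.86, 7.99 and 16.9 and FeAAD 5.08, 10.6 and 40.1. The ranges overlapped in both sexes, and MaAAD5 was far above the other MaAAD mice, of which the next had 18.7. The log2 fold change was 1.73 ± 0.43 in MaAAD against MaCon (adjusted p = 0.00148) and 0.90 (adjusted p = 0.0756) without MaAAD5. In FeAAD against FeCon it was 0.99 ± 0.41 (adjusted p = 0.0442), called in 8 of 19 refits that each left out 1 mouse, and 0.72 (adjusted p = 0.164) without FeAAD5. The females' change is thus at the edge of the threshold. Over the 48 mice, with group means removed on the log2 scale, Slc40a1 had a Pearson's r of -0.612 (Spearman's rho -0.627) with the smooth muscle sum. With the white fat sum r was 0.416 (rho 0.544) and with the macrophage sum 0.401 (rho 0.312), values that share each library's scaling. The part of these cell types in the Slc40a1 levels was not tested. Hepcidin (Hamp), the hormone that removes ferroportin from the cell surface, was at 0 in 14 of 48 mice and never above 9 counts, and it was not tested.

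Levels of different genes can be set side by side per length of message. With the longest annotated transcript, TPM, counts scaled by length and then to the same total, in FeCon averaged 3259 ± 328 (SD, n = 10) for Fth1, 1602 ± 354 for Ftl1, 359.8 ± 136 for Hp and 79.2 ± 14.9 for Ncoa4. Hmox1 (67.5 ± 71.5) and Blvrb (64.0 ± 12.8) followed and did not differ beyond their spread, then Slc11a2 (20.3 ± 3.90), and Slc11a1 (7.57 ± 1.59), Slc40a1 (6.52 ± 5.10) and Tfrc (6.51 ± 3.29) lay together at the bottom. In MaAAD, Hmox1 reached 507 ± 492 TPM (n = 7) and Ftl1 4274 ± 2014, above Fth1 at 2845 ± 614. With the median length of each gene's transcripts instead, Ftl1 in MaAAD was 2911 ± 1361 and Fth1 4891 ± 1063, so that order rests on the length chosen. Fth1 above Ftl1 above Hp in FeCon held with both lengths, but the order of the lower members did not. With the median length Ncoa4 (276 ± 49.1) and Hp (244 ± 91.8) in FeCon lay within their spread. Slc11a2 (84.4 ± 15.5) was then above Blvrb (47.1 ± 10.2), with Hmox1 at 45.6 ± 48.0. Slc40a1 (32.9 ± 25.5), Tfrc (11.6 ± 5.76) and Slc11a1 (5.14 ± 1.10) no longer lay together.

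No member was called between the sexes. Between MaCon and FeCon 14.3% of all genes were called and 0 members, with Hmox1 the 1 member at an unadjusted p under 0.05 in edgeR, where 4206 genes were. DESeq2 did call Hmox1, where it called 2411 of all genes. MaNonAD against FeNonAD and MaAAD against FeAAD called 0.0624% and 0.0901% of all genes and 0 members. By DESeq2 10 and 13 genes and 0 members were called. At an unadjusted p under 0.05 in edgeR there were 935 and 321 of 14431 genes and 0 members. The sex difference in the AAD response was called for 1.34% of all genes, that in the NonAD response for 0.416% and that in the step from NonAD to AAD for none, and for 0 members in each. At an unadjusted p under 0.05 these held 1 (Hmox1), 0 and 0 members beside 2220, 1751 and 149 of 14431 genes. DESeq2 called 0 members in each, where it called 405, 183 and 1 of all genes.

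Around the members, a wider list of 76 iron and heme genes, ordered by role, was read in the same fit, and changes of single genes are log2 fold changes of AAD against Con. It had 75 genes in the table and 70 tested. In FeAAD against FeCon 19 were called higher and 7 lower, which is 27.1% and 10.0% beside 23.8% and 20.6% of all genes, and in MaAAD against MaCon 18 higher and 6 lower, 25.7% and 8.57% beside 18.9% and 16.1%. In both sexes 12 were called higher and 3 lower, 36 were called in neither sex, and 1 was called in opposite directions. The shares called higher were near those of all genes, and the shares called lower were below them.

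**Figure D5:**
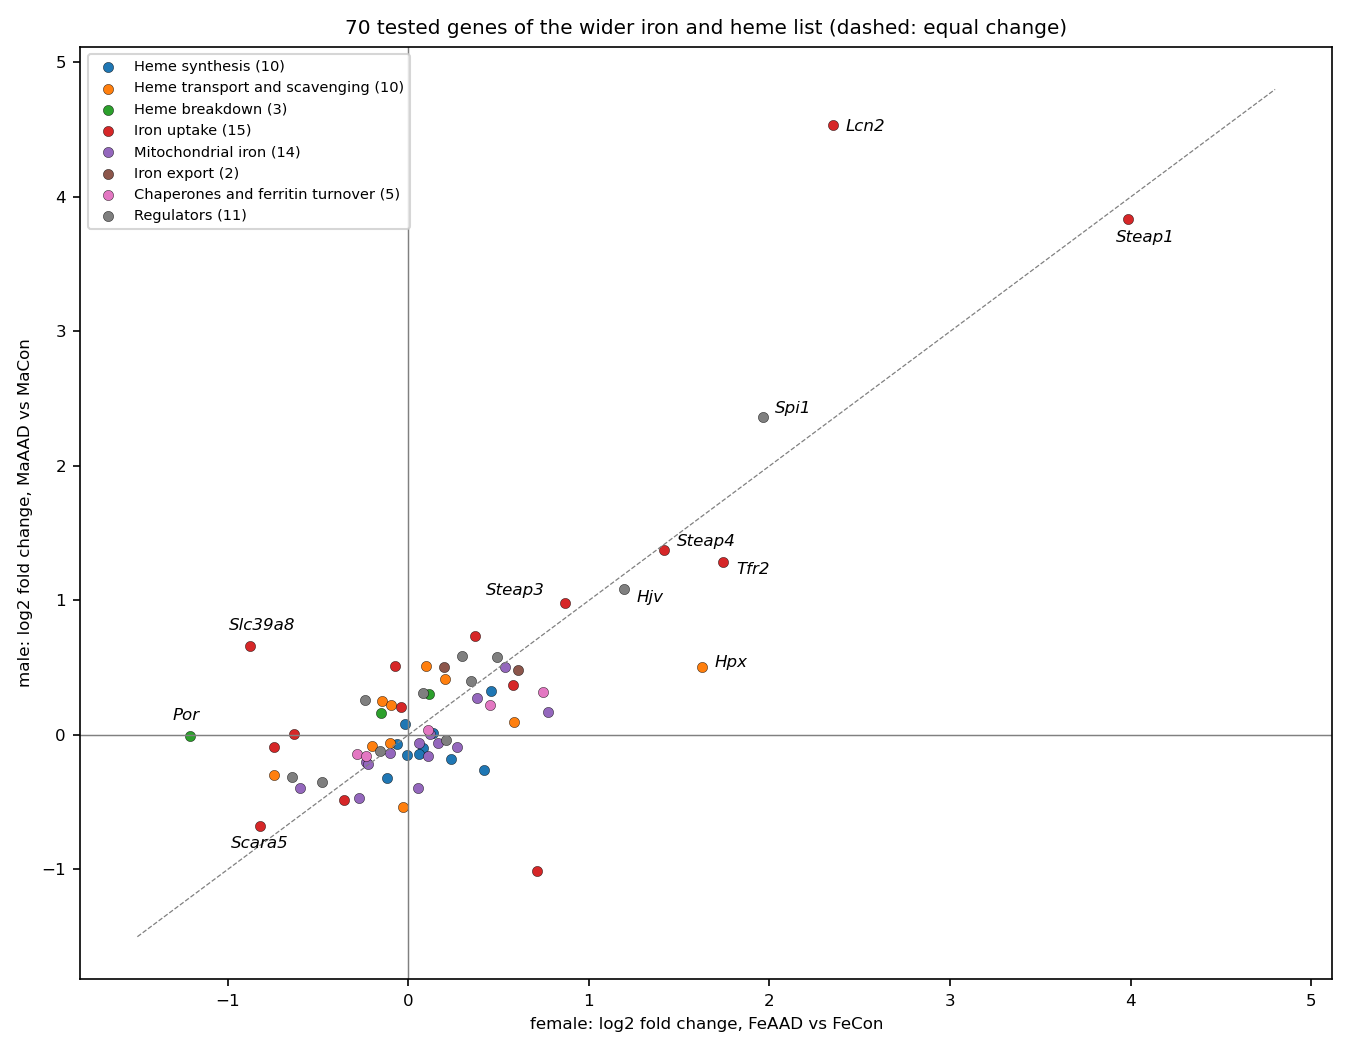
log2 fold change of AAD against Con in males against that in females for the 70 tested genes of the wider list, coloured by role, with a dashed line at equal change. Steap1 (3.99 in females and 3.84 in males) and Lcn2 (2.35 and 4.53) lie farthest out, and most heme synthesis and mitochondrial genes lie near 0.

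The iron uptake genes, 15 in all, held 6 called higher and 3 lower in females and 8 higher and 2 lower in males. Steap1, a membrane protein of the STEAP family that lacks the reductase domain of its relatives, had group medians of 0.195 CPM in MaCon and 1.43 in MaAAD, and 0.175 in FeCon and 0.686 in FeAAD. Its log2 fold changes were 3.84 ± 0.74 in males and 3.99 ± 0.73 in females, and it was at 0 in 4 libraries. Lcn2, a protein of neutrophils and inflamed epithelia that binds iron-carrying siderophores, had medians of 1.27 CPM in MaCon and 21.1 in MaAAD, and 2.41 and 4.38 in FeCon and FeAAD, with log2 fold changes of 4.53 ± 0.66 in males and 2.35 ± 0.58 in females. Tfr2, the second transferrin receptor, rose by 1.29 in males and 1.75 in females from median levels under 1 CPM. Transferrin itself (Trf) was higher in MaAAD (0.74, adjusted p = 0.00915 in edgeR) and not called in FeAAD (0.37, adjusted p = 0.160). Slc39a8, a metal importer singled out after its values were seen, was the gene called in opposite directions, higher in MaAAD (0.66) and lower in FeAAD (-0.88), and the difference itself was called (1.53, adjusted p = 0.0209 in edgeR). The controls also differed, with Slc39a8 lower in MaCon than in FeCon (-0.85, adjusted p = 0.0159 in edgeR), and it was lower in FeNonAD than in FeCon (-1.10, adjusted p = 0.00376).

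Among the heme scavengers, hemopexin (Hpx), which binds free heme, was higher in FeAAD (1.63, adjusted p = 0.00238 in edgeR) and at 0.50, adjusted p = 0.424 in MaAAD, and Cd163, the macrophage receptor for haptoglobin with hemoglobin, was at 0.10, adjusted p = 0.774 in FeAAD and 0.51, adjusted p = 0.135 in MaAAD. Of the ferroxidases that work with ferroportin, Heph was higher in both sexes (0.49 in males and 0.61 in females) while ceruloplasmin (Cp) was at 0.51, adjusted p = 0.00158 in males and 0.20, adjusted p = 0.178 in females in edgeR. The sex difference in response was not called for Cp, Hpx or Trf (adjusted p = 0.406, 0.407 and 0.610 in edgeR). Blvra, the other biliverdin reductase, was called in neither sex at 0.16 and -0.15. Of 10 heme synthesis genes, 2 were called higher and 0 lower in females, and 0 higher and 1 lower in males. Of 14 mitochondrial iron genes, 3 were higher and 1 lower in females, and 1 higher and 2 lower in males. Slc25a37, the mitochondrial iron importer, was higher in both sexes (0.51 and 0.54) and the iron-sulfur scaffold Iscu lower (-0.40 in males and -0.60 in females), while most Slc25a37 values were not whole numbers.

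Among the 11 regulators tested, 4 were higher and 1 lower in females, and 6 higher and 0 lower in males. Of the iron regulatory proteins that read the hairpins, Aco1 was at 0.21, adjusted p = 0.127 in FeAAD and -0.04, adjusted p = 0.841 in MaAAD in edgeR, and Ireb2 at 0.08, adjusted p = 0.563 and 0.31, adjusted p = 0.0291, with adjusted p = 0.505 for the sex difference in Ireb2. Fbxl5, the iron sensor that marks Ireb2's product for breakdown, was higher in both sexes (0.35 in females and 0.40 in males). Hfe and Hjv, which act on hepcidin in the liver, were also higher (0.49 and 1.20 in females, 0.58 and 1.08 in males), with Hfe counts not whole in 24 libraries. Spi1, a transcription factor of myeloid cells, rose by 1.96 in females and 2.37 in males.

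Hmox1 transcription is held down by BACH1 and driven by NRF2 (Nfe2l2). Bach1 was higher in MaAAD (0.59, adjusted p = 6.54e-04 in edgeR) and at 0.30, adjusted p = 0.0558 in FeAAD, with no sex difference called (adjusted p = 0.476), and Nfe2l2 was at 0.26, adjusted p = 0.0607 in MaAAD and -0.24, adjusted p = 0.0566 in FeAAD. Of 10 other genes known as targets of this pair, 7 were called higher and 1 lower in MaAAD, with a median log2 fold change of 0.72, where 18.9% of all genes were called higher and 16.1% lower. In FeAAD 3 were higher and 2 lower, with a median of 0.22, where 23.8% and 20.6% of all genes were, so the female counts are near the background. Slc7a11, the cystine importer, rose the most in both sexes (3.21 in males and 3.23 in females), and Gsr (0.85 and 0.76) and Prdx1 (0.49 and 0.51) were also called higher in both. Gclm (0.77), Srxn1 (0.67), Txnrd1 (0.80) and Osgin1 (0.79) were called higher in males, with 0.29, 0.19, 0.15 and 0.26 in females. Nqo1, a classical NRF2 target, was called lower in both (-0.42 and -0.41), Gclc was lower in females (-0.78, with 0.03 in males), and Me1 was called in neither (0.14 and -0.13). The sex difference in response was called for Gclc (0.81, adjusted p = 0.0174 in edgeR) and for none of the other 9. Gclc was already lower in MaCon than in FeCon, at -0.79, adjusted p = 2.86e-05.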

How the data were processed

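The authors deposited expected counts per gene (Bowtie2, RSEM 1.3.1 and GRCm39 per the submitters' processing notes), listed by symbol and unscaled, from stranded mRNA libraries of thoracic aorta. Values that were not whole made up 4.99%, and all were rounded, which moved no library total by more than 19.9. The design had assumed counts. Genes were filtered with filterByExpr, scaled by TMM (factors 0.873 to 1.08) and fitted in edgeR 4.0.16 (R 4.3.3, limma 3.58.1) by the robust quasi-likelihood test with 6 group means over 48 libraries, groups taken from the labels. There were 9 pairwise contrasts and 3 interactions (male minus female response). Adjusted p-values are Benjamini-Hochberg over 14431 genes, called under 0.05, and SE is the log2 fold change over the root of F. No libraries were identical, and pairs correlated at 0.908 to 0.996. The fit was tested on simulated counts.

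Alternatives were DESeq2 1.42.0, its size factors in edgeR, no filter, a replicate block, the compared groups only, a 2-fold rule, leaving out each library, the median transcript length and, added after seeing the data, leaving out 4 libraries that stood apart. Positions, lengths (17653 genes matched by symbol) and untranslated regions came from GRCm38 as annotated in GENCODE M21. The members and lists were chosen with earlier results of these data known. The text names all members and, per role of the wider list, up to 3 genes with the largest change among those called in both sexes the same way, plus 12 fixed genes and the NRF2 and BACH1 targets. Ftmt of that list was not listed. A gene among those most like Hp is not reported here. Counts carry no molecular identifiers, so depth covers counting error only. Python 3.11.15, numpy 2.4.6, pandas 2.3.3, scipy 1.17.1 and matplotlib 3.10.9 were used.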

Additional observations from a re-analysis of the deposited data

Results flagged for a closer look

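Of 60 pairs of a member and a group of 4 to 10 mice, 9 had a mouse whose gap to its nearest neighbour was large for the group's range by Dixon's test, where chance gives about 1 in 20. In FeAAD5 the levels of Blvrb (70.4 CPM), Slc11a1 (120.3 CPM) and Fth1 (2920.3 CPM) stood above the other FeAAD mice. In FeNonAD8 those of Hmox1 (45.7 CPM) and Slc11a1 (15.2 CPM) stood above the other FeNonAD mice, and its macrophage sum, 808 CPM, was the highest of its group. In FeCon3, Ftl1 was the highest (1049.9 CPM) and Ncoa4 the lowest (89.3 CPM) of FeCon. MaAAD5 had the highest Slc40a1 (85.5 CPM) of MaAAD, and MaNonAD2 the highest Tfrc (35.2 CPM) of MaNonAD.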

How the results depend on the processing

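No member changed direction in a call. In MaAAD against MaNonAD the count of 1 member called became 2 (Slc11a1 added) with DESeq2, with its size factors and without the 4 libraries that stood apart, and 0 with no filter, with a replicate block and with the compared groups only (0 to 2 leaving out 1 library). Over all genes the count there moved from 59 to 797, 212 and 188, and to 0 in those last 3 settings. In FeNonAD against FeCon the 1 call became 2 (Fth1 added) with the compared groups only and without those 4 libraries, and 0 with the replicate block and the 2-fold rule (0 to 1 leaving out 1 library). All genes called there went from 2098 to 2249 with the compared groups only, 2205 without those 4 libraries and 1477 with the replicate block. MaNonAD against MaCon went from 0 to 1 (Slc11a1) with the compared groups only, while all genes called went from 90 to 274. MaCon against FeCon went from 0 to 1 (Hmox1) with DESeq2 and with the compared groups only, while all genes called went from 2063 to 2411 and 1872. FeAAD against FeCon went from 7 to 4 with the 2-fold rule (5 to 8 leaving out 1 library), and MaAAD against MaCon kept a count of 5 under the other settings (4 to 5). The sex difference in the AAD response gave 0 to 1 leaving out 1 library. Slc40a1 in FeAAD against FeCon was not called with the replicate block (adjusted p = 0.0599 in edgeR), with no filter (0.0545), with the compared groups only (0.0693) or without the 4 libraries (0.159), nor Fth1 with the compared groups only (0.0763). Same-numbered mice of the compared groups did not deviate together on average (mean correlation -0.07 to 0.16, not every pair over 0.1), though a single pair of MaAAD and FeAAD reached 0.47. These values give no sign that the numbers pair the mice, but they cannot exclude a shared order of handling. The cause of these shifts was not tested. MaNonAD holds 4 mice, which limits every comparison with it, and 42 of 60 TPM means moved by more than their spread with the median transcript length.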

Other observations

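Genes whose levels varied most like those of a member were looked for within groups, as Pearson's r of log2(CPM + 1) deviations from the group means over 48 libraries among 11243 genes averaging at least 5 CPM. These are descriptions over libraries that share depth and tissue composition. Slc11a1 was most like Abcc3 (r = 0.915), Alox5ap (0.909) and the macrophage marker Cd14 (0.907). Hmox1 was most like the scavenger receptor Msr1 (0.860), Clec4d (0.837) and Clec4n (0.836), which myeloid cells use. Slc40a1 was most like the cholesterol exporter Abcg1 (0.763), the lysosomal lipase Lipa (0.759) and Cd274 (0.731).

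Among the genes nearest to Hp were Lrg1 (0.953), an acute-phase protein, and Anxa8 (0.811). Tfrc was most like Mrpl47 (0.750), Gfm1 (0.745) and Ptcd3 (0.742), which serve translation in mitochondria. Fth1 was most like Atp6v0c (0.920), Psmb6 (0.904) and Prelid1 (0.891). Among the members, Blvrb and Fth1 varied together within groups (0.837), and Fth1 and Ncoa4 in opposite directions (-0.681).

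The clock gene Arntl had medians of 37.7 CPM in MaCon and 25.1 in FeCon against 5.45 in MaNonAD, 4.95 in MaAAD, 4.97 in FeNonAD and 6.90 in FeAAD. The female ranges overlapped, at 2.03 to 41.9 CPM in FeCon, 1.18 to 63.8 in FeNonAD and 2.35 to 39.6 in FeAAD, and the male ranges of 1.62 to 63.1 in MaCon, 2.04 to 11.4 in MaNonAD and 2.40 to 8.04 in MaAAD overlapped through MaCon5. Its part in the difference of any member between treated and control mice was not tested. Por, which feeds electrons to heme oxygenase and was singled out after its values were seen, was lower than in FeCon both in FeAAD (log2 fold change -1.21, adjusted p = 6.18e-05 in edgeR) and in FeNonAD (-1.08, adjusted p = 0.00281) and was at -0.01, adjusted p = 0.982 in MaAAD, with adjusted p = 0.0648 for the sex difference in response, and it was also lower in MaCon than FeCon (-0.98, adjusted p = 0.00347).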
